A study of Mus musculus with 22 samples.

Results

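The passage from morula to blastocyst in mouse embryos without H2A.Z knockdown was examined by comparing 4 RNA libraries of control blastocysts with 4 of control morulae, over the genes whose FPKM (sequenced fragments divided by transcript length and by the library's total) reached 1 in at least 3 of these 8 libraries. This rule took 11849 of the 55335 genes in the deposited table, and 8 of the 22 libraries of the series. Embryos came from superovulated B6D2F1 females aged 8 weeks mated with B6D2F1 males, and were taken as zygotes and grown in culture. Each library was made from 15 embryos without the zona pellucida. They were collected 78 h after hCG (the hormone that triggers ovulation) as morulae or 94 h after it as blastocysts. The control libraries carry only the treatment label "control", and whether those zygotes were injected with a control siRNA or left uninjected is not stated for them, though the study's controls for quantitative PCR were not injected. Control 2-cell embryos (4 libraries, 43 to 44 h) are used below for their levels only, and morulae (3 libraries) and blastocysts (4 libraries) that had received 3 pairs of siRNAs against H2A.Z at 20 μM as zygotes (H2A.Z KD) were compared between the same collection times.

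In background terms, the compacted morula is a ball of cells whose outer layer becomes the trophectoderm, an epithelium that seals itself with junctions, pumps salt and water inward and so opens the blastocoel cavity. The cells left inside form the inner cell mass, which sorts into the epiblast, the source of the fetus, and the primitive endoderm, the source of yolk sac layers. Position is read through the Hippo pathway, whose silence in outer cells lets TEAD4 with its partner YAP switch on Cdx2 and Gata3, while FGF signalling divides the inner cells.

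The deposited values keep no read totals. The smallest steps between low values of single-exon genes gave each library's relative depth, in arbitrary units, as 20.4, 21.4, 26.9 and 28.2 for the morulae with replicate numbers 1, 2, 7 and 8, and as 22.4, 14.8, 17.0 and 18.6 for the blastocysts with numbers 1, 4, 5 and 6; every list of 4 values below follows this order. Between 10406 and 11174 genes had an FPKM of at least 1 in a morula library and between 10554 and 11216 in a blastocyst library. Across genes, log2 values correlated at r of 0.97 to 0.99 between morulae, 0.97 to 0.98 between blastocysts and 0.83 to 0.90 between the stages, as a description over genes that are not independent.

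Blastocyst 1 stood apart from the others of its stage. Its FPKM summed to 722576 against 646290 to 670289 in the other blastocysts, and 20.0% of that sum lay in the mitochondrial genome against 15.2% to 17.1%. Counted over the 11849 genes, morula 1 lay far from the other morulae in 3.15% and blastocyst 1 far from the other blastocysts in 2.55%, against 0.920% to 1.10% and 0.861% to 1.21% for the remaining libraries of each stage. Without blastocyst 1 the counts given next were 1540 genes higher and 1435 lower, and without morula 1 they were 1474 and 1492. Nothing in the labels says whether the replicates came from separate cultures or matings, so the p-values below measure the spread between these samples.

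In blastocysts 1583 genes rose and 1525 fell, 13.4% and 12.9% of those tested, where a call needed an adjusted p under 0.05 in limma and a difference of more than 1 in log2(FPKM + 1) after scaling of each library by its median ratio to the geometric mean. On that scale the change of genes with low FPKM is understated. The median difference was 1.48 among genes that rose, -1.41 among those that fell and -0.02 over all genes tested; 369 rose and 274 fell by more than 2. All 4 libraries of a stage lay beyond all 4 of the other for 5995 genes, 50.6% of those tested, among them 1558 of the risen and 1457 of the fallen genes. Exact permutation of 4 against 4 libraries can give no two-sided p below 0.0286.

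**Figure D1:**
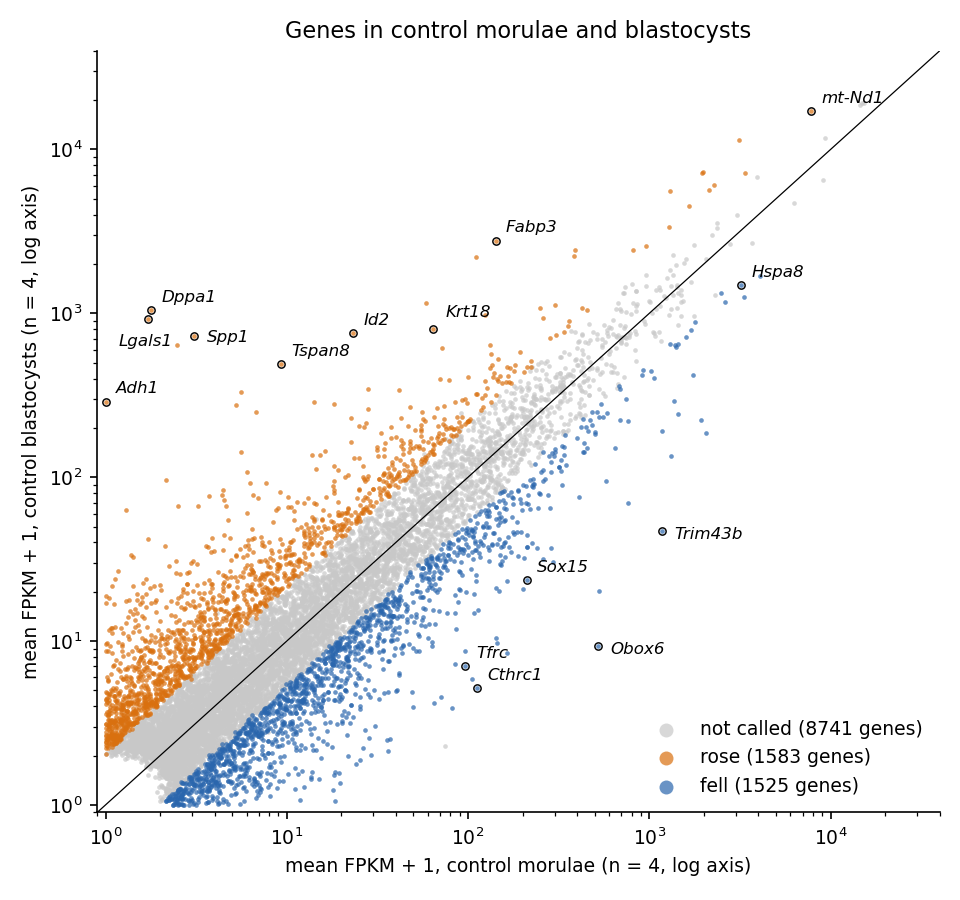
Mean FPKM + 1 in the 4 control morulae (horizontal, log axis) and the 4 control blastocysts (vertical, log axis) for each of 11849 genes; the 1583 genes that rose are orange, the 1525 that fell are blue and the rest are grey. Dppa1, Lgals1, Adh1, BC053393 (not labelled) and Spp1 lie highest above the diagonal and Obox6 lies farthest below it.

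The called genes were chosen on these same libraries, so the direction of the levels and shares given here was set by the choice and only their size is a measurement. The median FPKM of the risen genes was 1.49 at the 2-cell stage, 2.40 in morulae and then 11.7, and that of the fallen genes 10.5, 13.8 and 3.86. Of the risen genes, 418 were below 1 FPKM in every control morula, and of the fallen genes 297 were below 1 in every control blastocyst; the filter admits such genes only through the stage where they are higher, so their direction was set by it. Over all genes tested 765 were below 1 in every morula and 510 in every blastocyst. Members of this kind are counted below for the lists that rest on them. The risen genes held 8.93% ± 0.331 (SD, n = 4) of all FPKM in morulae and 25.4% ± 1.74 (SD, n = 4) in blastocysts, while the share of the fallen genes went from 19.02% ± 0.926 (SD, n = 4) to 5.80% ± 0.836 (SD, n = 4). Each library is a pool of whole embryos, so more or fewer cells of a type and more or less RNA per cell cannot be told apart in any of these values.

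The steepest rises began from almost nothing. Dppa1, an embryonic surface gene listed with the trophectoderm products (ENSMUSG00000064010.12, chromosome 11, 46607772 to 46629261, on GRCm38, as are all positions below), had FPKM of 0.332, 1.01, 1.13 and 0.628 in the morulae and 1457, 1135, 782 and 793 in the blastocysts. Lgals1, which encodes the sugar-binding protein galectin-1 (ENSMUSG00000068220.6, chromosome 15, 78926725 to 78930465), measured 0.118, 0.691, 1.27 and 0.787 against 1465, 908, 563 and 761. For Adh1, an alcohol dehydrogenase that also acts on retinol (ENSMUSG00000074207.10, chromosome 3, 138260991 to 138290698), the morulae gave 0, 0.0113, 0 and 0 and the blastocysts 347, 294, 332 and 180.0. No morula exceeded 1.27 FPKM for any of these genes, and no blastocyst fell below 180.0. The log2 differences were 9.09 (SE 0.26, limma adjusted p = 1.84e-09), 8.94 (SE 0.32, adjusted p = 8.65e-09) and 8.06 (SE 0.22, adjusted p = 1.84e-09). Adh1 was below 1 FPKM in every morula and passed the filter through the blastocysts alone, so its direction was set by the filter.

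The other large rises were of genes with varied roles. Spp1, the secreted adhesion protein osteopontin (ENSMUSG00000029304.14, chromosome 5, 104435118 to 104441050), had 1.65, 1.65, 3.28 and 1.78 FPKM in morulae and 989, 788, 589 and 534 in blastocysts, and Tmsb4x, which holds actin monomers, had 5.59, 3.61, 5.48 and 3.70 against 606, 365, 186 and 163. The stages did not overlap for either gene (log2 differences 7.78 and 5.62, adjusted p = 4.61e-09 and 3.71e-07); a gene of unknown type on the same strand overlaps Spp1, so some of its reads are uncertain. BC053393 rose from a mean of 1.49 to 639 FPKM, Glrx, a glutaredoxin that reduces protein disulfides, from 4.27 to 273, and Upp1, which splits uridine, from 1.16 to 95.1. The peptide carrier Slc15a2 gave 0.522, 0.217, 0.230 and 0.196 and then 122, 49.4, 42.2 and 35.6, with blastocyst 1 far above the other blastocysts. Slc15a2 was below 1 FPKM in every morula and passed the filter through the blastocysts alone. X-linked Tceal9 gave 5.87, 5.63, 5.31 and 6.20 and 570.0, 153, 181 and 96.3, with the same library highest. The log2 differences of Slc15a2 and Tceal9 were 5.38 and 4.79, and 4.97 and 4.24 without blastocyst 1.

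Among the genes that fell, Obox6 changed most. This oocyte and early embryo homeobox gene (ENSMUSG00000041583.8, chromosome 7, 15833241 to 15839678) had FPKM of 481, 545, 541 and 515 in morulae and 4.86, 7.90, 8.07 and 12.6 in blastocysts. Its log2 difference was -5.94 (SE 0.20, adjusted p = 7.19e-09). All morulae were at or above 481 and no blastocyst passed 12.6. Its mean in 2-cell embryos was 566, so the level of the 2-cell stage was still present in the morula. Trim43b and Trim43c, neighbouring ubiquitin ligase genes of nearly the same sequence that may share reads, fell from means of 1170.0 and 524 to 46.1 and 19.1.

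The other steep declines were likewise of genes with varied roles. Tfrc, the transferrin receptor that brings iron into the cell (ENSMUSG00000022797.16, chromosome 16, 32608920 to 32632794), measured 121, 107, 78.4 and 76.6 FPKM in morulae and 4.01, 6.59, 6.36 and 7.12 in blastocysts. Larp4, a protein that binds poly(A) tails, had 129, 190.1, 133 and 119 and 10.1, 5.21, 8.92 and 10.7. For neither did the stages overlap, and the log2 differences were -3.86 and -3.98 (adjusted p = 2.45e-08 and 1.42e-07). Cthrc1, a secreted collagen-associated protein, fell from a mean of 112 to 4.16, Sp110, a nuclear body protein, from 69.5 to 3.57, Bex6 from 28.0 to 1.03, and Fbxl20, a substrate adaptor of ubiquitin ligases, from 84.0 to 6.24. Dynap fell by 4.07 on the log2 scale and was listed at 0 in blastocysts 4 and 5; the cytidine deaminase gene Apobec3, which overlaps Cbx7, fell by 3.76.

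Among called genes the largest gains in absolute level lay in the mitochondrial genome and its nuclear copies. The complex I gene mt-Nd1 measured 8368, 8098, 7876 and 6854 FPKM in morulae and 21054, 15313, 15170.1 and 17096 in blastocysts, and the complex IV gene mt-Co1 4106, 3771, 2537 and 2143 and 13345, 10587, 9831 and 11611. Every blastocyst exceeded every morula, but the log2 difference of mt-Nd1, 1.04, dropped to 0.89 and out of the call without blastocyst 1, the library with the largest mitochondrial share, and to 0.68 after quantile normalization; mt-Co1 had 1.81. Gm29216 and Gm28437, pseudogenes on chromosome 1 copied from the mitochondrial genome, rose by 2.00 and 1.78 beside mt-Co1 and mt-Co3. Gm28661, a further such pseudogene, rose by 1.31 (0.75, below the threshold, after quantile normalization). Reads that fit both a copy and its original make these values uncertain. Over the 13 protein genes of the mitochondrial genome, 4 rose and 1 fell with a median log2 difference of 0.30 (0.12 after quantile normalization, when 7 in place of 11 were above 0), while 14 of the 22 mitochondrial transfer RNA genes tested fell (median -1.64), in libraries primed on poly(A) tails, which transfer RNAs mostly lack.

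Among called genes with large losses in absolute level were Timd2, a ferritin receptor, which went from a mean of 4092 to 1687 FPKM, Sat1, which breaks down polyamines (2599.6 to 1177), and the constitutive chaperone Hspa8. For Hspa8 the morulae gave 2177, 1976, 3839 and 4771 and the blastocysts 1484, 1091, 2278 and 1106. Blastocyst 5 lay above morulae 1 and 2, so the stages overlapped, and the log2 difference of -1.16 became -0.90 without morula 8. The processed pseudogenes Gm12617, Gm11517 and Gm5612 fell by 1.496, 3.58 and 3.21; reads from their parent genes may be counted in them.

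Most tested structural and secreted products of the trophectoderm rose. Of 35 such genes in the table, 24 passed the filter, 17 of these rose and 2 fell, and their median log2 difference was 2.40. Of the risen genes 5 were below 1 FPKM in every morula, and of the other 19 members 12 rose (median 1.73). Krt8 and Krt18, the paired keratins of the first epithelium, measured 32.4, 19.3, 28.8 and 27.7 and 47.8, 54.7, 67.4 and 80.9 FPKM in morulae and 225, 431, 425 and 289 and 730.2, 992, 827 and 646 in blastocysts (ENSMUSG00000049382.10, chromosome 15, 101996698 to 102004482; ENSMUSG00000023043.7, chromosome 15, 102028180 to 102032027). Each blastocyst was well above each morula for both, with log2 differences of 3.499 (SE 0.20, adjusted p = 1.30e-07) and 3.57 (SE 0.22, adjusted p = 1.63e-07). Krt7, below the filter, had 0.331, 0.186, 0.268 and 0.555 and 0.696, 1.21, 1.18 and 0.945, and Krt19 did not reach 1 FPKM in any of the 8 libraries.

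Fabp3, a carrier of fatty acids, was the most abundant of the 10 trophectoderm markers used below to check the stage labels (ENSMUSG00000028773.8, chromosome 4, 130308595 to 130315463). This held in every morula and every blastocyst. Fabp3 was at a mean of 0.578 FPKM in 2-cell embryos, then 107, 139, 142 and 176 in morulae and 3382, 2648, 2528 and 2534 in blastocysts. Its log2 difference was 4.21 (adjusted p = 6.35e-08). Thus its rise was already under way in the morula and no library of the later stage fell below 2528; the gene overlaps Zcchc17 on the opposite strand. Tspan8, a membrane tetraspanin, measured 8.55, 7.79, 7.94 and 8.82 and 714, 508, 335 and 389.6, and Dkkl1, a secreted relative of Dickkopf, 3.32, 2.43, 3.43 and 4.64 and 115, 81.4, 72.8 and 61.4. On the log2 scale the difference of Tspan8 (5.57) was larger than those of the keratins, with Dkkl1 between them (4.13).

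**Figure D2:**
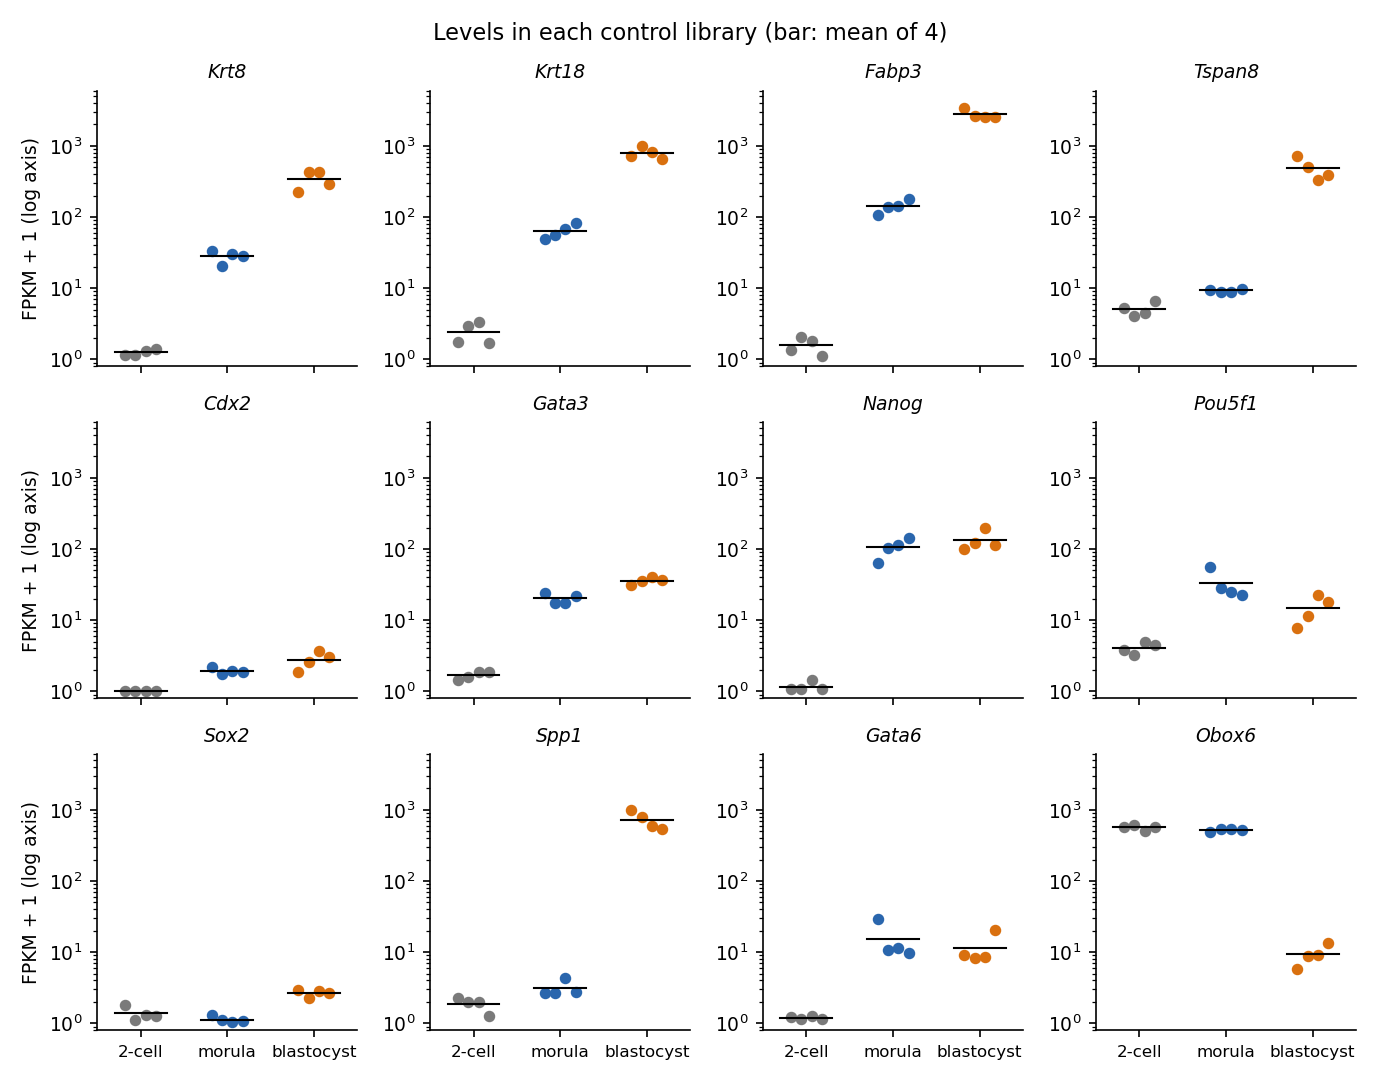
FPKM + 1 (log axis) of 12 genes in each control library of 2-cell embryos, morulae and blastocysts; each point is 1 library and each bar the mean of 4. Krt8, Krt18, Fabp3 and Tspan8 separate the morulae from the blastocysts, whereas Cdx2, Nanog and Gata6 overlap.

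The transcription factors of the trophectoderm did not move as a block. Of 20 in the table, 15 passed the filter, 5 rose and 4 fell, and the median log2 difference of -0.007 turned to 0.07 with FPKM as deposited and 0.00 after quantile normalization; over the 13 not below 1 FPKM in every morula it was -0.35, with 3 that rose. Id2, an inhibitor of helix-loop-helix factors (ENSMUSG00000020644.9, chromosome 12, 25093799 to 25097140), gave 17.0, 29.7, 20.3 and 21.5 in morulae and 847, 853, 677 and 642 in blastocysts. Eomes, which sustains trophoblast stem cells, gave 1.68, 1.83, 1.23 and 1.09 and 8.22, 8.03, 7.57 and 8.21. These rose in every blastocyst, by 4.96 and 1.82 (adjusted p = 2.29e-08 and 2.28e-06), and 2 further genes, which passed the filter through the blastocysts alone, were near 0 in morulae: Elf5, a factor of trophoblast stem cells, had 0.0160, 0, 0.00307 and 0.00497 and then 2.12, 2.20, 1.47 and 0.841, and Gata2, listed at 0 in all 4 morulae, had 2.96, 3.18, 1.35 and 0.935 in the blastocysts.

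Cdx2, the defining regulator of the lineage (ENSMUSG00000029646.3, chromosome 5, 147300805 to 147307270), was low in these libraries. It measured 1.19, 0.777, 0.926 and 0.884 FPKM in morulae and 0.863, 1.56, 2.66 and 2.07 in blastocysts, values that overlap (log2 difference 0.42, adjusted p = 0.0578). Gata3, which acts beside Cdx2, had 22.7, 16.5, 16.6 and 20.8 and 29.9, 34.8, 39.3 and 35.9; all blastocysts were higher, but the difference of 0.75 was below the threshold of 1 (adjusted p = 8.75e-04). Tead4 gave 34.4, 25.7, 15.3 and 15.1 and 5.20, 8.20, 9.60 and 7.98, with morulae 1 and 2 above morulae 7 and 8 and all blastocysts below them. Its log2 difference was -1.46, and -0.96 when only libraries with replicate numbers of 4 and above were compared. Tfap2c, an AP-2 factor, fell by 1.41, Hand1, a factor of later giant cells, by 2.05, and Sox15, which works with Hand1 in those cells and overlaps Mpdu1, by 3.26.

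Promoters were searched for the trophectoderm products that rose, genes chosen by that call in these same libraries. RefSeq promoters (GRCm38.p6, from 250 bases before to 50 after the start) were available for 15 of the 17. Of 7 motifs searched on both strands, the one most often present was GGGNGTGG, the letters bound by KLF factors, in 7 of the 15 (46.7%). It was in 23.2% of 1100 promoters of all risen genes and 22.5% of 977 promoters of fallen genes. Over all tested genes it was in 22.8% of 7324 promoters, and over the whole reference in 17.6% of 27025. The motif was singled out after the counts were seen, and a match is a description, not a site or a cause. For the 4 genes among them with values given above, the 80 bases before the start are shown with these letters on either strand in capitals, at chr15:102028136-102028215 (plus strand), chr10:115817204-115817283 (plus), chr4:130308658-130308737 (plus) and chr7:45211884-45211963 (minus).
Krt18: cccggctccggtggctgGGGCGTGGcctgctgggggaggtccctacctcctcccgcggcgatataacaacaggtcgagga
Tspan8: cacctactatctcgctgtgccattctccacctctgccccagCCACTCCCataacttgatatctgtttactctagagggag
Fabp3: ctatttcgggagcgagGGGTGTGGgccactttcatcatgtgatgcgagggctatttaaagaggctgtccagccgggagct
Dkkl1: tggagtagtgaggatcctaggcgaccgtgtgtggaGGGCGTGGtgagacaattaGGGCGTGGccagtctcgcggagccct
The match began 63 bases before the start in Krt18, 39 in Tspan8 and 64 in Fabp3, and Dkkl1 held 2 matches. The start here is that of RefSeq, which lies inside the annotated span of each of the 4 genes. Each window therefore lies partly or wholly within that span.

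Transcripts of some desmosome and claudin genes rose. Among 36 junction genes in the table, 33 passed, 8 rose and 1 fell (median log2 difference 0.48). The desmosomal cadherin Dsg2 gave 0.665, 0.209, 0.243 and 0.193 FPKM in morulae and 9.50, 9.75, 9.28 and 10.1 in blastocysts, and its partner Dsc2 0.119, 0.0452, 0.0885 and 0.131 and 5.82, 6.36, 6.55 and 5.36. Both were above 5 FPKM in every blastocyst, but with Dsp and Cldn3 they were the 4 risen genes below 1 in every morula; of the 28 members not so low 4 rose, with a median of 0.28. Epcam, an adhesion molecule of epithelia, rose from a mean of 70.5 to 609.7, and Cldn3 and Cldn6, strands of the tight junction, from 0.124 to 4.03 and from 14.6 to 54.3; Crb3, an apical polarity protein, fell from 96.4 to 38.3. Cldn4, another tight junction claudin, had 27.8, 24.1, 25.02 and 19.9 in morulae and 8.86, 25.6, 49.96 and 25.2 in blastocysts, whose range spans the morulae, and its log2 difference of -0.13 (adjusted p = 0.770) became 0.27 without blastocyst 1.

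Fluid transport was covered by 10 of 23 genes listed, of which 5 rose and 1 fell (median 1.12, and 0.03 over the 8 genes left without the 2 that were below 1 FPKM in every morula). Atp1b1, the beta subunit of the sodium pump that drives the cavity open (ENSMUSG00000026576.12, chromosome 1, 164437109 to 164458355), gave 9.45, 6.90, 6.19 and 6.76 in morulae and 23.1, 43.2, 37.2 and 30.1 in blastocysts. The water channel Aqp8 was listed at 0 in all 4 morulae and had 6.59, 4.44, 9.67 and 10.2 in blastocysts. Atp1b1 separated the stages, rose by 1.94 (adjusted p = 3.15e-06) and overlaps Nme7 on the other strand. Aqp8 was 1 of the 2 genes so low in morulae and passed through the blastocysts alone, so the filter set its direction. Aqp3, another water channel, had 44.2, 28.5, 27.5 and 31.3 and 14.0, 21.9, 43.1 and 25.5, which overlap (log2 difference -0.49, adjusted p = 0.109). Slc9a3r1, a scaffold of apical ion transporters, rose by 2.52, the pump regulator Fxyd6 by 1.96, and the chloride cotransporter Slc12a2 fell by 2.60.

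More pluripotency genes fell than rose. Of 39 listed, 31 passed, 6 rose and 9 fell, with a median log2 difference of -0.49. Of the risen genes 4 were below 1 FPKM in every morula and passed through the blastocysts alone, and of the other 27 members 2 rose and 9 fell (median -0.75). Nanog, a factor of the epiblast (ENSMUSG00000012396.12, chromosome 6, 122707489 to 122714633), measured 62.9, 103, 113 and 143 FPKM in morulae and 100.5, 121, 195.1 and 112 in blastocysts, and Pou5f1, which encodes OCT4 (ENSMUSG00000024406.16, chromosome 17, 35506018 to 35510772), 55.3, 27.3, 23.7 and 21.5 and 6.81, 10.37, 21.6 and 17.1. Nanog overlapped between stages (log2 difference 0.24, adjusted p = 0.478) and its sign turned without morula 1, to -0.04. Pou5f1 fell by 1.24 (adjusted p = 0.00447), although blastocyst 5 slightly exceeded the lowest morula, and the difference was -0.71 between libraries numbered 4 and above. Sox2, which marks the inner cells and was one of those 4, went from 0.295, 0.104, 0.0352 and 0.0678 to 1.90, 1.27, 1.82 and 1.69, low values that did not overlap (log2 difference 1.21, adjusted p = 1.84e-05).

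Other members of the pluripotency list followed each of these courses. The threonine dehydrogenase Tdh fell from a mean of 36.4 to 9.15 FPKM, Sall4 from 55.3 to 23.5, and Nr5a2, which sustains Pou5f1 in the embryo, from 20.0 to 7.84. Fbxo15 gave 376, 485, 407 and 401 in morulae and 85.6, 279, 84.7 and 361 in blastocysts, where libraries 1 and 5 were low and libraries 4 and 6 nearer the morulae. Fbxo15 lost the call in the comparison of libraries numbered 4 and above (-1.20) and with no filter on low FPKM (-1.42). Klf4 was lower in every blastocyst with a difference of -0.56, under the threshold. Mycn and Bmp4, also below 1 in every morula, rose by 1.76 and 1.33, and Tcl1, a cofactor of the kinase AKT, had a mean of 1608 FPKM at the 2-cell stage, 2.5001 in morulae and then 12.5, so that it dropped to near nothing and then rose by 1.86.

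Markers of the primitive endoderm were scarce. Its regulator Gata6 (ENSMUSG00000005836.10, chromosome 18, 11052064 to 11085635) had FPKM of 27.8, 9.73, 10.3 and 8.87 in morulae and 8.25, 7.32, 7.46 and 19.4 in blastocysts. Morula 1 and blastocyst 6 stood high, so the stages overlapped, while each of the remaining morulae was above each of the remaining blastocysts (log2 difference -0.42, adjusted p = 0.307); a noncoding gene overlaps it on the other strand. Gata4 stayed at or below 0.0716 in all 8 libraries. Sox17 and Pdgfra, which were not tested, reached 1.07, 0.757, 0.370 and 0.188 and 0.863, 2.93, 2.37 and 0.714 in blastocysts from at most 0.01002 and 0.117 in morulae. Of 36 genes in the list, 17 passed, 5 rose and 2 fell (median 0.58, and 0.05 over the 13 not below 1 FPKM in every morula, of which 2 rose): Cfc1, a coreceptor for Nodal, rose from a mean of 0.413 to 20.8, Sparc, a matrix protein of parietal endoderm, from 0.115 to 15.8, and Apoe, a lipid carrier, from 5.51 to 25.4, while the coactivator Cited1 fell from 224 to 38.9.

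Matrix and adhesion genes were counted as 5 that rose against 2 that fell of 16 tested among 32 (median 0.61); 4 of the risen genes were below 1 FPKM in every morula, and 1 of the 9 genes not so low rose (their median was 0.36). Fibronectin, Fn1, rose by 1.43 and was below 1 FPKM in every morula; the dystroglycan gene Dag1, by 1.10, was the member not so low that rose. The integrin Itgb5 gave 14.3, 8.58, 6.46 and 7.48 in morulae and 0.432, 0.574, 6.31 and 0.800 in blastocysts. Blastocyst 5 was the exception for it, near the lowest morula, and the log2 difference was -2.13 with that library and -2.64 without it. Laminin Lama1 remained under 1 FPKM in all 8 libraries.

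Signalling lists differed in how many members were called. In the Hippo list 19 of 27 genes passed, 1 rose and 3 fell (median -0.67): the kinase Stk4, which holds YAP outside the nucleus, fell from a mean of 11.7 to 4.44 FPKM, and Nf2, which recruits such kinases to the membrane, gave 6.61, 5.32, 2.32 and 1.86 and 0.551, 0.992, 1.95 and 1.08. Blastocyst 5 overlapped the morulae for Nf2, whose difference was -1.20, and -0.56 between libraries numbered 4 and above. Tead2, the member that rose, by 1.11 or 0.98 without blastocyst 5, was below 1 FPKM in every morula, and the median of the other 18 was -0.73. The Hippo shares, 5.263% that rose and 15.79% that fell, were not tested against the 13.4% and 12.9% over all genes. In the FGF and ERK list 2 of 18 tested genes rose and 2 fell out of 33 (median -0.23), or 11.1% each way against 13.4% and 12.9% over all genes; 1 of the risen genes was below 1 FPKM in every morula, and over the other 17 the median was -0.41.

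Among FGF and ERK genes, Dusp6 and Map2k2 moved in opposite directions. Dusp6, a phosphatase that ERK activity induces, gave 2.88, 1.78, 1.67 and 1.77 in morulae and 6.65, 9.59, 11.6 and 6.34 in blastocysts, and the ERK kinase gene Map2k2 gave 73.6, 35.6, 17.9 and 15.7 and 3.14, 8.52, 8.61 and 5.90. Every blastocyst was higher for Dusp6 and lower for Map2k2, by 1.57 and -2.17 (adjusted p = 2.71e-05 and 5.16e-04), with morulae 1 and 2 above morulae 7 and 8 for Map2k2. The ligand Fgf4, not tested, was 1.30, 0.868, 0.690 and 0.401 and 0.711, 1.01, 0.848 and 0.710, and the receptor Fgfr1 1.496, 0.578, 0.131 and 0.537 and 0.475, 1.98, 2.26 and 1.97, which overlap (log2 difference 0.61, adjusted p = 0.0615); Fgfr1 was called between libraries numbered 4 and above, at 1.11. For Fgfr2 the difference was 0.32 (adjusted p = 0.285), in an annotated span that many expressed genes overlap.

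Of the Nodal, BMP and Wnt list 5 of 16 tested genes rose and 3 fell, of 40 listed (median 0.13, and -0.16 over the 13 not below 1 FPKM in every morula, of which 2 rose). The Wnt antagonist Dkk1 rose from a mean of 0.515 to 5.75 FPKM and the ligand Wnt3a from 0.320 to 2.38. Id1 and Id3, targets of BMP signals, fell from 3.18 to 0.318 and from 73.5 to 27.1. Id1 was below 1 FPKM in every blastocyst and passed through the morulae alone, so its direction was set by the filter. In the LIF and STAT3 list, 2 rose and 3 fell of 11 tested and 16 listed (median 0.20). That was 18.18% and 27.27%, beside 13.4% and 12.9% over all genes and not tested against them. Stat3 gave 2.28, 1.36, 0.953 and 1.04 and 4.61, 5.48, 7.78 and 6.39, and the feedback inhibitor Socs3 4.51, 1.97, 1.44 and 1.23 and 0.0934, 0.104, 0.0909 and 0.197. Stat3 was higher in each blastocyst than in any morula. Socs3 was below 0.200 in each blastocyst and passed the filter through the morulae alone, so its direction was set by the filter. The kinases Pim1 and Pim3 fell by 1.82 and 1.84, and the cytokine Il6 rose by 1.84.

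Most tested genes of the first zygotic wave fell. Of 36 two-cell genes in the table, 15 passed the filter, 12 of which fell and 0 rose (median -1.38); 0 were higher in blastocysts at an unadjusted p under 0.05 in limma. Of the fallen genes 3 were below 1 FPKM in every blastocyst, and 9 of the 12 members not so low fell. Tcstv3 went from a mean of 226 FPKM in 2-cell embryos through 8.61 in morulae to 0.977 in blastocysts, and Obox8 from 192 through 3.72 to at most 0.0419 in any blastocyst. Cphx1, a homeobox gene, had 22.2, 17.1, 20.2 and 21.1 in morulae and 1.38, 2.92, 2.64 and 2.78 in blastocysts. Here too the stages did not overlap (log2 difference -2.72, adjusted p = 2.35e-07), though near copies of Cphx1 may share its reads. Zscan4c, at a mean of 33.7 in 2-cell embryos, was already at or below 0.259 in the morulae. The summed FPKM of the list did not separate the stages: it was 2999, 3338, 5069 and 3664 in morulae and 5541, 3968, 2920.0 and 3567 in blastocysts, which overlap. Most of it was Crxos, chosen after its values were seen, with means of 3062 and 3954 and a log2 difference of 0.28 (adjusted p = 0.404) that turned to -0.30 after quantile normalization and -0.29 between libraries numbered 4 and above.

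The oocyte and maternal list had 17 of 51 genes that passed, 3 that rose and 6 that fell (median -0.49, and -0.88 after quantile normalization). Omt2b, of the oocyte-specific Omt2 family, had a mean of 5530.4 FPKM at the 2-cell stage, 8.11 in morulae and then 1.29, with blastocyst 1 highest at 3.19. Padi6, which builds the oocyte's cytoplasmic lattices, fell by 1.84 and Npm2, a histone chaperone of the egg that was below 1 FPKM in every blastocyst, by 1.87. Ooep, of the subcortical maternal complex, rose instead: it gave 1.85, 2.85, 3.58 and 2.45 in morulae and 44.0, 32.1, 34.6 and 35.3 in blastocysts, beside a 2-cell mean of 8.84. Nlrp4f likewise had a mean of 29.5 at the 2-cell stage, 0.143 in morulae and then 4.20. The log2 differences were 3.27 and 2.08; Nlrp4f was below 1 FPKM in every morula and passed through the blastocysts alone. The oocyte factor Gdf9 did not reach 1 FPKM in any of the 8 libraries.

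Of the Prame-like and oogenesin family, 10 of 17 passed, 3 fell and 0 rose, with 0 higher and 7 lower at an unadjusted p under 0.05 in limma (median -0.78). Pramel4 and Pramel7 fell from means of 499.6 and 472 to 182 and 221, in a family whose copies may share reads. Magea genes on the X chromosome had 3 of 6 that rose (median 1.11, and 0.86 over the 5 not below 1 FPKM in every morula, of which 2 rose); Magea6, the low one, gave 0.541, 0.598, 0.431 and 0.816 and 4.78, 6.20, 3.68 and 4.44. Of 32 Rhox homeobox genes, also on the X chromosome, 2 passed and 1 fell.

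**Figure D3:**
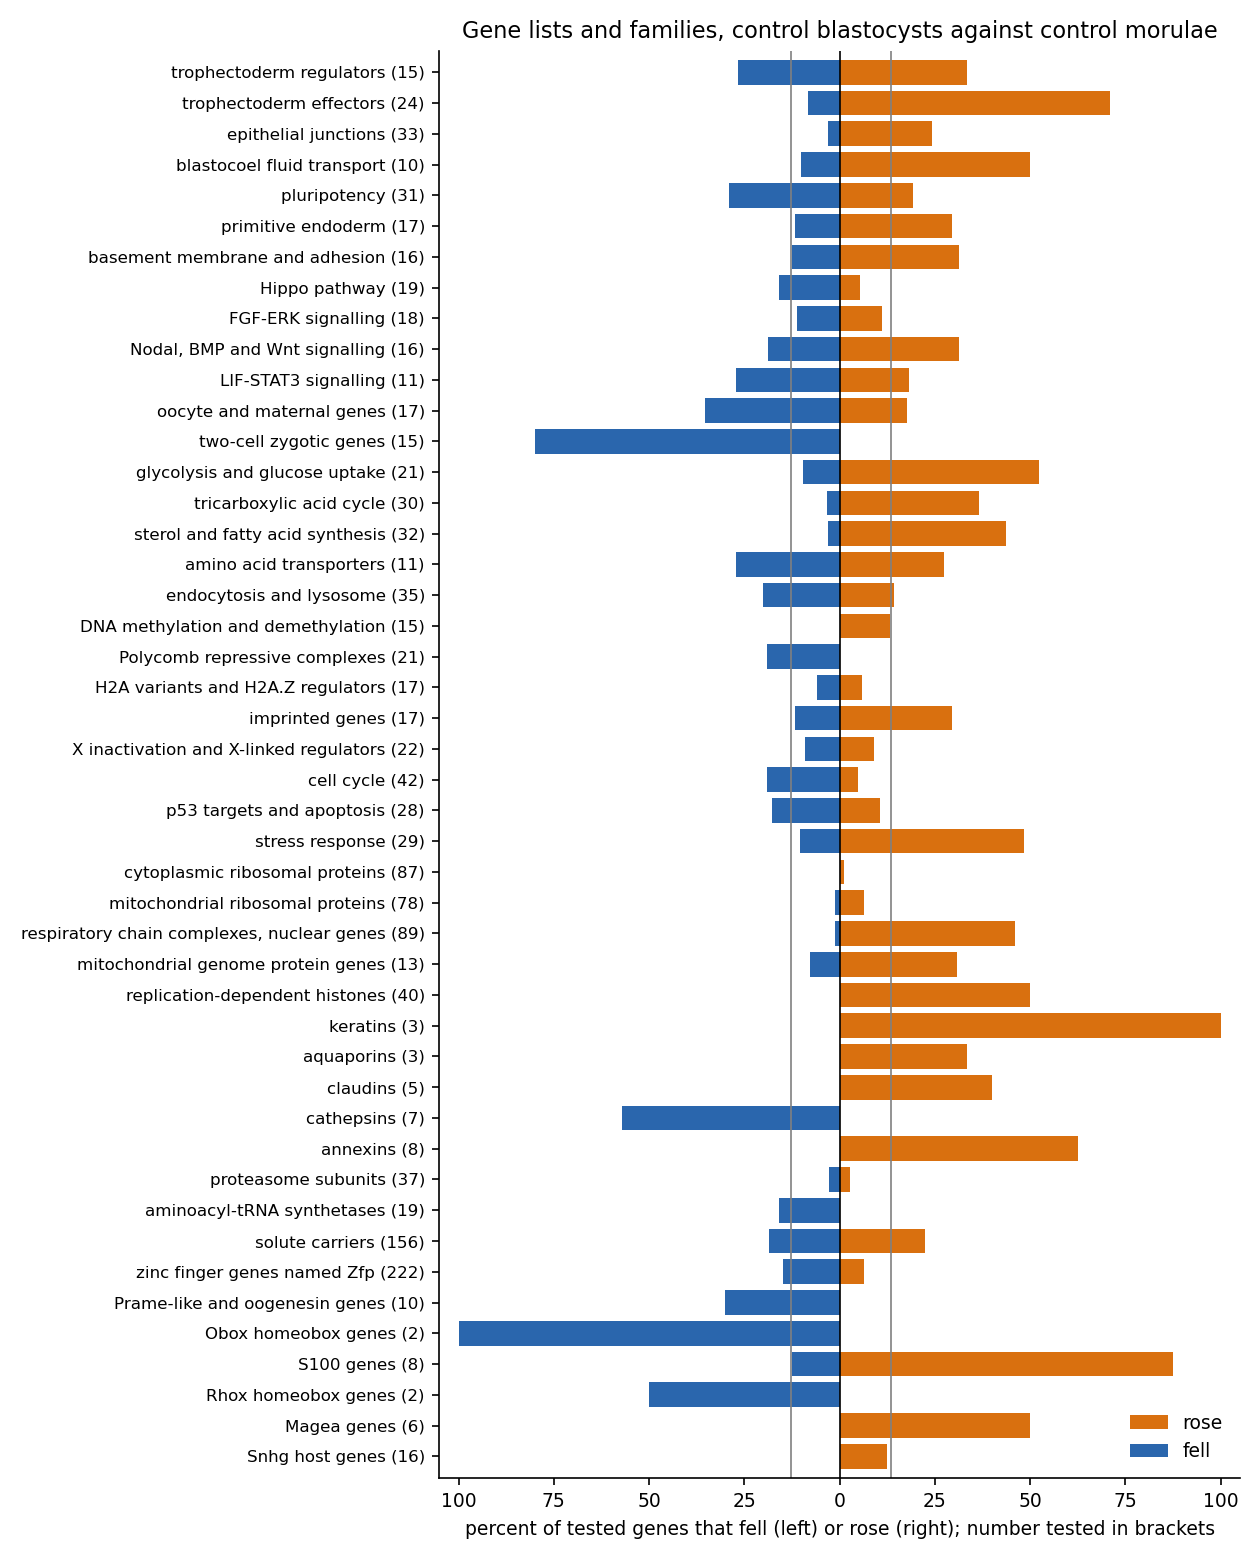
Percent of tested genes in each gene list and family that rose (orange, to the right) or fell (blue, to the left) from control morulae to control blastocysts, with the number tested beside each name; grey lines mark 13.4% and 12.9%, the shares over all 11849 genes. Keratins, S100 genes and trophectoderm effectors reach farthest right, and two-cell zygotic genes and Obox genes farthest left.

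Genes of energy metabolism rose more often than they fell. Of 33 genes of glycolysis and glucose uptake 21 passed, 11 rose and 2 fell (median 1.01). Tpi1, which interconverts the triose phosphates (ENSMUSG00000023456.15, chromosome 6, 124810586 to 124814296), gave 6.35, 5.21, 6.59 and 3.73 FPKM in morulae and 83.0, 90.9, 80.8 and 53.2 in blastocysts, and Gapdh, the next enzyme of the pathway, 28.5, 17.6, 28.5 and 28.5 and 142, 212, 234 and 219. In neither case did the stages overlap (log2 differences 3.51 and 2.83, adjusted p = 1.40e-07 and 2.99e-07), although pseudogenes of Gapdh may take some of its reads. Pgk1 and Eno1 rose by 2.02 and 1.54, while Ldhb, a lactate dehydrogenase subunit at a mean of 183 in 2-cell embryos, fell from 3.07 to 0.603.

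Glucose carriers were less uniform. Slc2a3, the GLUT3 carrier, gave 6.02, 8.03, 10.5 and 10.96 in morulae and 31.9, 35.6, 6.12 and 40.7 in blastocysts, and Slc2a1, the GLUT1 carrier, 6.50, 4.12, 5.55 and 7.58 and 4.74, 11.9, 20.3 and 11.1. Blastocyst 5 lay among the morulae for Slc2a3 and blastocyst 1 did so for Slc2a1. Slc2a3 had a log2 difference of 1.26 at an adjusted p of 0.0449 and lost its call when any library except blastocyst 5 was left out, with differences of 1.02 without blastocyst 6, 1.05 without morula 1, 1.07 without blastocyst 1, 1.09 without blastocyst 4, 1.22 without morula 2, 1.34 without morula 7 and 1.39 without morula 8. Slc2a1, not called with 0.70, gained a call at 1.01 without blastocyst 1. Slc2a8, another carrier, which acts inside the cell, fell from a mean of 20.2 to 6.81.

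Mitochondrial enzymes encoded in the nucleus rose in large number. For the respiratory chain 89 of 94 nuclear genes passed, 41 rose and 1 fell, with a median log2 difference of 0.96 and 82 above 0. Cox7b, a subunit of complex IV, gave 23.2, 29.4, 37.6 and 37.9 in morulae and 247, 139, 181 and 172 in blastocysts; Ndufs4, of complex I, gave 17.8, 19.3, 22.7 and 19.9 and 133, 81.9, 82.2 and 98.1. Every blastocyst was higher for each, with blastocyst 1 highest, and the differences were 2.40 and 2.14 (2.21 and 1.95 without it). Cox4i2, the isoform of complex IV used at low oxygen, was the member that fell, from 3.21 to 0.207. It was below 1 FPKM in every blastocyst and passed through the morulae alone, so the filter set its direction.

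In the tricarboxylic acid cycle 11 of 30 tested genes rose and 1 fell, of 31 listed (median 0.63). Mdh1, the cytosolic malate dehydrogenase, gave 9.60, 14.6, 14.2 and 12.7 and 186, 121, 106 and 132, a rise of 3.21 with no overlap. Idh3a, of the isocitrate dehydrogenase of the cycle, rose from a mean of 22.4 to 130.3, and Mpc2, part of the carrier that brings pyruvate into mitochondria, fell from 219 to 62.9. Of 78 mitochondrial ribosomal protein genes tested, 5 rose and 1 fell (median 0.22). These shares, 6.41% and 1.282%, stand beside 13.4% and 12.9% over all genes and were not tested against them.

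Of 32 tested genes of sterol and fatty acid synthesis, 14 rose and 1 fell out of 38 (median 0.96). Nsdhl, an enzyme of cholesterol synthesis, gave 3.38, 4.56, 4.35 and 4.60 in morulae and 31.1, 29.5, 39.7 and 30.2 in blastocysts, and Scd1, which desaturates fatty acids, 3.78, 4.06, 2.74 and 3.58 and 21.4, 20.4, 27.5 and 26.6. The stages lay apart by 2.60 and 2.38 (adjusted p = 3.14e-07 and 3.84e-07). Plin2, which coats lipid droplets, rose from a mean of 41.9 to 228, and Acsl4, which activates arachidonic acid, fell from 15.0 to 3.78. The letters TCACNCCAC, bound by SREBP factors, were in none of the 10 promoters available for the risen genes of this list and in 1.22% of all promoters, which says only that these letters are not in those windows.

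Among transport and degradation genes some rose and others fell. Solute carriers numbered 156 tested of 377, with 35 that rose and 29 that fell (median 0.07, and -0.06 over the 141 not below 1 FPKM in every morula). These shares, 22.44% and 18.59%, were not tested against the 13.4% and 12.9% over all genes. Amino acid transporters numbered 11 tested of 25, with 3 each way (27.27%, median 0.13). Of those 3 risen transporters 2 were below 1 FPKM in every morula, and of the other 9 members 1 rose and 3 fell (median 0.02). Slc38a1, a glutamine carrier and one of those so low, rose by 1.77, and Slc5a6, the multivitamin carrier, fell by 2.41 beside the overlapping gene Atraid. In the endocytosis and lysosome list 5 rose and 7 fell of 35 tested and 38 listed (median 0.05), shares of 14.3% and 20.0% beside 13.4% and 12.9% over all genes and not tested against them, while cathepsins, the lysosomal proteases, had 4 that fell and 0 that rose of 7 tested (1 higher at an unadjusted p under 0.05 in limma; median -1.25). Ctsz gave 157, 157, 134 and 151 in morulae and 20.0, 36.7, 40.7 and 32.6 in blastocysts, and Hexa, a lysosomal hexosaminidase, 31.5, 26.6, 26.5 and 30.6 and 53.1, 80.3, 118 and 81.1. Both genes separated the stages, in opposite directions (-2.30 and 1.36).

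Calcium-binding families mostly rose. S100 genes had 7 that rose and 1 that fell of 8 tested (median 1.77), and annexins 5 that rose of 8 (median 1.33). In these families 3 and 2 of the risen genes were below 1 FPKM in every morula, so that 4 of 5 and 3 of 6 of the other members rose. S100a10, the partner of annexin A2, gave 47.4, 37.0, 43.7 and 35.2 in morulae and 433, 323, 272 and 322 in blastocysts, and Anxa2 gave 27.0, 27.6, 22.2 and 28.5 and 198, 228, 235 and 198. The pair rose alike, by 2.92 and 2.89, with no overlap. S100a3 was the S100 gene that fell (-1.70), but it was below 1 FPKM in every blastocyst and passed through the morulae alone.

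Few Polycomb genes were called. In that list 21 of 32 genes passed, 4 fell and 0 rose (median -0.57), and 19.05% fell against 12.9% of all genes, a difference that was not tested; limma gave 2 of them a higher value at an unadjusted p under 0.05. Kdm2b, which brings a variant complex to CpG islands (ENSMUSG00000029475.17, chromosome 5, 122870665 to 122989823), gave 23.4, 11.2, 12.7 and 6.55 in morulae and 1.05, 1.13, 1.13 and 1.32 in blastocysts. The morulae spread widely and each exceeded every blastocyst (log2 difference -2.67, SE 0.25, adjusted p = 4.61e-06). Kdm2b overlaps Rnf34 on the other strand. Pcgf1, Pcgf5 and Pcgf6, ring finger members of such complexes, had log2 differences of -1.39, -1.59 and -1.499.

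DNA methylation genes had 2 that rose and 0 that fell of 15 tested (median 0.28, and 0.03 over the 12 not below 1 FPKM in every morula, of which 1 rose): Tdg, a glycosylase that removes oxidised methylcytosine, went from a mean of 0.579 to 7.0001 FPKM and was below 1 in every morula, and Uhrf1, which guides maintenance methylation, from 0.682 to 4.41. The share of the list that rose, 13.33%, was near the 13.4% over all genes, of which 12.9% fell. In limma 3 genes of the list had a lower value at an unadjusted p under 0.05. Dnmt3l, a helper of the new-methylation enzymes, gave 44.7, 45.6, 50.7 and 49.5 and 25.5, 28.5, 31.8 and 35.1, and Dnmt3b 6.72, 4.20, 4.48 and 4.16 and 4.71, 7.98, 7.37 and 6.84. All blastocysts were lower for Dnmt3l, by less than the threshold (-0.73), and the stages overlapped for Dnmt3b (0.32, adjusted p = 0.123).

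Histone genes linked to DNA replication were higher in blastocysts. Of 69 such genes in the table, 40 passed and 20 rose, and all 40 had a log2 difference above 0 (median 1.00). Of these, 20 were below 1 FPKM in every morula and could pass only through the blastocysts; of the other 20, 5 rose and 20 were above 0, with a median of 0.57, and transcripts of these genes mostly lack the poly(A) tail that the libraries select. Hist1h2bc, an H2B gene that also makes polyadenylated transcripts, gave 2.41, 1.43, 4.24 and 2.82 and 91.3, 62.7, 72.5 and 77.4, a difference of 4.33 with no overlap. In the list of H2A variants and H2A.Z regulators 17 passed, 1 rose and 1 fell (median -0.32): H2afy, macroH2A1, gave 6.56, 4.97, 4.92 and 5.10 and 14.0, 15.8, 14.5 and 23.6, and Vps72, a subunit that handles H2A.Z in its deposition complex, 40.9, 37.5, 19.3 and 15.4 and 3.48, 8.20, 12.3 and 8.01. The first rose by 1.39 and the second fell by 1.77, with morulae 1 and 2 above 7 and 8 for Vps72.

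Imprinted genes had 5 that rose and 2 that fell of 17 tested and 38 in the table. Their median of -0.05 turned to 0.03 with FPKM as deposited and 0.00 after quantile normalization. The shares, 29.41% and 11.76%, were not tested against the 13.4% and 12.9% over all genes. Sfmbt2 and Slc38a4, imprinted in placental tissue, rose from means of 0.633 and 2.79 to 7.21 and 18.9. A noncoding gene overlaps Sfmbt2 on the other strand. Igf2r, the maternally expressed receptor that clears IGF2, fell from 9.66 to 2.64. H19 was at or near 0 in all 8 libraries. Xist, the RNA that coats the inactive X, gave 5.59, 5.89, 5.19 and 5.82 in morulae and 5.45, 2.51, 9.54 and 4.66 in blastocysts. The blastocysts spread on both sides of the morulae (log2 difference -0.20, adjusted p = 0.555, and 0.08 without blastocyst 4), and Tsix, transcribed across it from the other strand, cannot be told apart from it. The list of X inactivation and X-linked regulators had 2 that rose and 2 that fell of 22 tested (median -0.41). That was 9.091% each way, beside 13.4% and 12.9% over all genes. Among X-linked genes as a whole 17.2% of 464 rose and 9.91% fell, with a median of 0.05.

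Called cell cycle genes mostly fell, 8 against 2 of 42 tested among 53 (median -0.15, and -0.07 with FPKM as deposited); the share that fell was 19.05% against 12.9% over all genes, and the difference was not tested. Ccne1, the cyclin that opens S phase (ENSMUSG00000002068.16, chromosome 7, 38097984 to 38107534), gave 187, 198, 203 and 218 in morulae and 13.7, 37.4, 42.0 and 32.0 in blastocysts, and Ccna2, the cyclin of S phase and mitosis, 191, 157, 142 and 154 and 48.2, 63.5, 75.9 and 65.2. Each was lower in every blastocyst, by 2.84 (adjusted p = 3.07e-06) and 1.43 (adjusted p = 5.49e-06); Ccna2 overlaps Exosc9. Cdt1, which licenses replication origins, fell by 1.25, and Cdkn2c, an inhibitor of G1 kinases, rose by 1.60. Ccnb2, a mitotic cyclin, rose by 1.07, and lost the call at 0.98 without blastocyst 4 and 0.92 without morula 1.

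Targets of p53 and genes of apoptosis had 3 that rose and 5 that fell of 28 tested (median -0.22). These shares, 10.71% and 17.86%, stand beside 13.4% and 12.9% over all genes and were not tested against them. The antiproliferative gene Btg2 rose by 1.64, and the death-promoting genes Bok and Bid fell by 1.69 and 1.51. Cdkn1a, the p21 inhibitor, gave 52.6, 32.4, 38.9 and 38.2 in morulae and 18.4, 31.4, 48.5 and 55.7 in blastocysts, which overlap (log2 difference -0.25, adjusted p = 0.428), and its sign turned to 0.007 without blastocyst 1.

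Stress response genes rose in 14 and fell in 3 of 29 tested and 34 listed (median 0.93). Mt1, a metal-binding metallothionein, gave 447, 389, 328 and 364 in morulae and 1814, 1837, 2381 and 2901 in blastocysts, and the glutathione transferase Gsta4 14.8, 14.5, 19.6 and 20.0 and 387, 269, 223 and 229. The rises were 2.44 and 3.82 without overlap, whereas the serine synthesis genes Psat1 and Phgdh fell by 1.66 and 1.26.

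Few cytoplasmic ribosomal protein and proteasome genes were called. Of 87 cytoplasmic ribosomal protein genes tested 1 rose, the paralog Rpl22l1 (1.74), and 0 fell (median 0.08), with 9 lower at an unadjusted p under 0.05 in limma. Proteasome genes had 1 each way of 37 (median 0.26). That was 2.703% each way, beside 13.4% and 12.9% over all genes. For aminoacyl-tRNA synthetases 3 of 19 fell and 0 rose (0 higher at an unadjusted p under 0.05), with a median of -0.04 that turned to 0.05 with FPKM as deposited. The share that fell, 15.79%, was not tested against the 12.9% over all genes. Farsa fell from a mean of 44.4 to 10.5 FPKM. Zinc finger genes named Zfp had 14 that rose and 33 that fell of 222 tested (median -0.16). These shares, 6.306% and 14.86%, stand beside 13.4% and 12.9% over all genes and were not tested against them. Zfp143, an activator of many housekeeping promoters, gave 29.2, 32.4, 34.0 and 35.8 and 4.65, 6.74, 11.6 and 8.51. An antisense gene that reached 33.3 FPKM overlaps Zfp143 on the other strand, so some of its reads are uncertain. Host genes of small nucleolar RNAs named Snhg had 2 that rose and 0 that fell of 16 tested (median 0.33). In limma 3 were lower at an unadjusted p under 0.05. The share that rose, 12.5%, was near the 13.4% over all genes, of which 12.9% fell.

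The stage labels were checked against marker genes of each cell type. Of 10 trophectoderm markers 9 passed the filter, 6 rose and 1 fell, and their summed FPKM was 246.1, 255.5, 280.1 and 331.7 in morulae and 5097, 4634, 4176 and 3915 in blastocysts, with Fabp3 the most abundant. The 9 inner cell mass and epiblast markers, 7 of them tested, summed to 204.3, 207.9, 245.6 and 259.4 and then to 1203, 1022, 890.4 and 720.4, with Spp1 the most abundant. The 8 primitive endoderm markers, 2 of them tested and 4 below 1 FPKM in all 8 libraries, summed to 37.6, 16.9, 16.2 and 16.7 and to 22.7, 29.0, 28.7 and 39.8, with Gata6 leading. Without the leading gene the trophectoderm markers summed to 116.5 to 155.9 in morulae and 1381 to 1987 in blastocysts, still apart. The inner cell mass and epiblast markers without Spp1 summed to 202.7, 206.3, 242.3 and 257.6 and to 214.7, 234.0, 301.7 and 186.6, which overlap, so the gap in their full sum was that of Spp1. The primitive endoderm sums overlapped with Gata6, and without it were 5.85 to 9.76 in morulae and 14.5 to 21.7 in blastocysts.

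Other cells that could have travelled with the embryos left little signal. The 8 markers of cumulus and granulosa cells summed to between 4.04 and 5.79 FPKM in morulae and between 3.87 and 6.34 in blastocysts, nearly all of it Amhr2, and Amh, Fshr and Has2 were at 0 in all 8 libraries. Blood markers (4, with Hbb-bt and Hbb-bs at 0) summed to at most 3.63 and fibroblast markers (4, with Col1a2 and Dcn at 0) to at most 0.643. The 6 oocyte markers summed to 8.35, 5.53, 4.27 and 4.93 in morulae and 1.54, 2.55, 1.77 and 1.95 in blastocysts, led by Zp3. Their part in the differences was not tested. In wider lists of such markers 3 of 20 cumulus genes passed (1 rose, the protease inhibitor Serpine2 with 1.24, and 1 fell; the median of -0.06 turned to 0.02 with FPKM as deposited) and 3 of 15 blood and fibroblast genes, of which 0 rose and 0 fell (1 higher and 1 lower at an unadjusted p under 0.05 in limma).

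Position and sequence separated the groups weakly. The share of tested genes that rose ran from 8.59% on chromosome 8 to 17.2% on X, leaving out Y with 6 genes tested, and of the 37 mitochondrial genes 15 fell. Risen genes had a median exon length of 2405.5 bases, fallen genes 2804 and all tested genes 2893; protein-coding genes made up 83.8%, 77.7% and 75.4%. Promoters of risen genes held a median of 16 CG dinucleotides, those of fallen genes 20 and those of all tested genes 21. The letters GGAATG, bound by TEAD factors, were in 13.1%, 12.7% and 11.9% of these promoters and in 14.6% of all promoters, and AGATAA, bound by GATA factors, in 7.73%, 7.57% and 6.57%, and 11.4%.

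The H2A.Z KD embryos were collected at the same times and compared in the same way. H2afz itself, the target (ENSMUSG00000037894.13, chromosome 3, 137864487 to 137866922), measured 1158, 1336, 1511 and 1421 FPKM in control morulae and 2656, 2431, 1945 and 2055 in control blastocysts, and 30.3, 25.7 and 29.0 in KD morulae and 64.2, 67.2, 53.2 and 57.6 in KD blastocysts. All KD libraries lay below all control libraries, and within controls every blastocyst was above every morula, by 0.65 (adjusted p = 0.0124), under the threshold of 1. Between KD stages 931 genes rose and 706 fell, 7.86% and 5.96% of the 11849 genes, and with FPKM as deposited 1233 rose and 463 fell. These genes had passed the filter in control libraries, so a gene that reached the minimum only in KD libraries was left out. KD blastocysts by name are embryos collected at 94 h, and how many of them had formed a cavity is not stated for these libraries. The study reports that far fewer KD than control embryos became blastocysts, so KD differences are given between collection times.

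Of the genes that rose in control blastocysts 688 also rose in KD (43.5% of the control list and 73.9% of the KD list), and of those that fell 527 also fell (34.6% and 74.6%). Most kept their sign: 1518 of 1583 and 1469 of 1525. The median KD difference was 0.89 over the control-risen genes, where the control median was 1.48, and -0.78 over the control-fallen genes, where it was -1.41. Across all genes the 2 sets of differences correlated at r of 0.79 with a slope of 0.56, as a description over genes. Npc1, a lysosomal cholesterol transporter chosen after its values were seen, alone was called in opposite directions, with 1.04 in controls and -1.10 in KD; its control call was lost at 0.93 without morula 2, 0.90 without morula 8 and 0.99 without blastocyst 6.

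**Figure D4:**
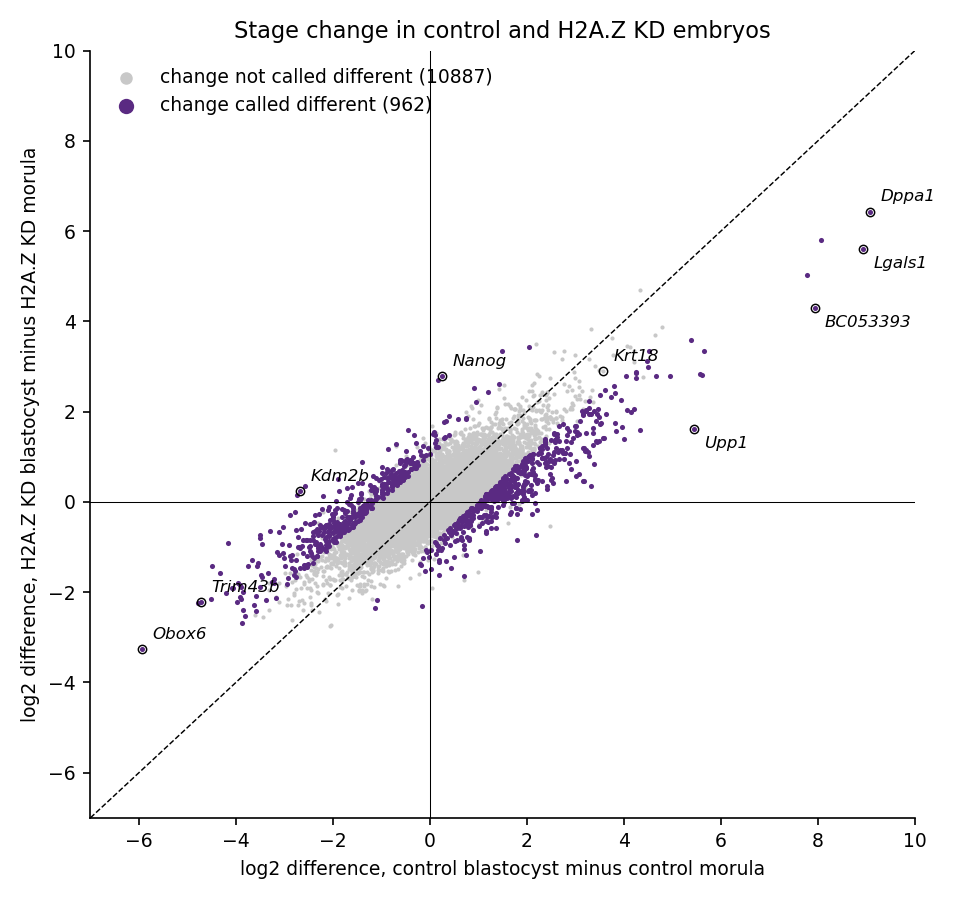
Log2 difference between blastocysts and morulae in control embryos (horizontal) and in H2A.Z KD embryos (vertical) for 11849 genes; genes whose difference itself differed between the groups are dark, and the dashed line marks equal change. Most dark points lie nearer the horizontal axis than the dashed line does, as do Lgals1 and Upp1, while Nanog lies above it.

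A test of the difference between the stage changes called 962 genes, 8.12% of those tested. Among genes that rose in controls the KD change was smaller for 418 and larger for 4, and among those that fell it was smaller for 307 and larger for 2, in sets chosen for a large control change. Upp1 had 2.23, 0.710, 0.480 and 1.24 FPKM in control morulae and 114, 114, 78.8 and 73.3 in control blastocysts, but 5.87, 4.22 and 7.49 in KD morulae and 18.2, 25.9, 28.3 and 18.6 in KD blastocysts. The KD blastocysts thus stayed below every control blastocyst, and the stage changes differed by -3.84 (adjusted p = 1.62e-05). Kdm2b gave 3.75, 12.1 and 2.28 in KD morulae and 7.14, 4.54, 10.6 and 5.96 in KD blastocysts, which overlap, with a log2 difference of 0.23 (difference of changes 2.86, adjusted p = 0.00174).

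Lineage genes fell on both sides of this division. Nanog, not called in controls, gave 17.9, 11.6 and 32.5 FPKM in KD morulae and 118, 134, 226 and 166 in KD blastocysts, a rise of 2.78 (difference of changes 2.49, adjusted p = 0.00184). All KD morulae were below all control morulae for it, and the blastocysts of the groups overlapped. In KD the keratins Krt8 and Krt18 rose by 2.93 and 2.89, and the differences of change of -0.61 and -0.73 were not called. Elf5 and Gata2, which appeared in control blastocysts, had 0.0300, 0.0991, 0.186 and 0.103 and 0.0582, 0.121, 0.205 and 0.10002 in KD blastocysts. Both passed the filter through the control blastocysts alone, a choice that favours lower values in KD. Lgals1, BC053393 and Tmsb4x rose in KD by 5.61, 4.30 and 2.82, differences of change of -3.33, -3.65 and -2.84, and Slc44a1, a choline carrier, rose by 2.18 in controls and had -0.72 in KD. Of genes that fell in controls, the cardiac peptide gene Nppb and the homeobox gene Cphx2 had KD differences of 0.15 and 0.35; the short genes Mir292b and Gm25353 and the predicted genes Gm5890 and Gm11546 were also among the largest differences of change. Mir292b overlaps Nlrp12 and Gm25353 overlaps Gnpnat1 on the same strand, so their reads are uncertain.

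Whole lists differed in how their counts compared. Of 48 lists and families, 30 had fewer genes that rose in KD than in controls, 12 as many and 6 more; for genes that fell these were 26, 16 and 6. Over all genes the counts also dropped, from 1583 to 931 and from 1525 to 706, with 3 KD morulae against 4 control morulae. The filter used control libraries alone, so genes that reached 1 FPKM only in KD libraries were not counted. It admitted genes high in control blastocysts alone, which favours fewer calls in KD, to an extent that was not tested. Of the respiratory chain genes 41 rose in controls and 6 in KD, of the S100 genes 7 and 0 (4 higher in KD at an unadjusted p under 0.05 in limma), and of the replication-dependent histones 20 and 16, while the junction genes had 8 and 8, the annexins 5 and 5, glycolysis 11 and 10 and the endocytosis and lysosome list 5 and 7. Of the 89 respiratory chain genes tested, 4 had a called difference of change. Of the 8 S100 genes, 5 had one, each lower in KD, beside 8.12% over all genes. Among these, S100a1, S100a13 and S100a16 were below 1 FPKM in every control morula. They passed the filter through the control blastocysts alone, which favours a smaller KD change, so the count is no measure of the family. The counts of risen genes come from separate tests within each group, and the difference between them was not tested for a list as a whole. For the single genes S100a10 and Hist1h2bc the stage changes differed by -2.23 (adjusted p = 1.28e-04) and 0.33 (adjusted p = 0.550). No 2-cell libraries enter any of these tests, and 2-cell levels are set beside the others without a test because a comparison of 2-cell embryos with morulae would share the morulae used here.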

How the data were processed

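RNA was measured by Smart-seq2, which amplifies polyadenylated RNA, in libraries of 15 embryos. After alignment to mm10 by STAR, the authors computed the deposited FPKM for each gene in StringTie 2.1.4; the annotation release is not stated. Read depth per library is unknown, so no counting interval can be given, and the spread between libraries is the error used.

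FPKM were divided by a median-of-ratios factor per library, 1 was added and log2 taken. Genes that reached 1 FPKM in 3 or more of the 8 control libraries were tested with limma 3.58.1 (R 4.3.3; lmFit, eBayes with trend) and adjusted by the Benjamini-Hochberg method. The H2A.Z KD stages were compared by the same test on the same genes, and the difference of the stage changes as an interaction over 15 libraries. Annotation came from GENCODE M21, where 54587 identifiers matched in the same version, and promoters from RefSeq. Python 3.11.15, numpy 2.4.6, pandas 2.3.3 and matplotlib 3.10.9 were used otherwise. The limma fit and thresholds alone were run on simulated log2 values, drawn as normal noise around the morula means. In these 200 genes had a log2 difference of 2, of which 97.5% were recovered, and 3 unchanged genes were called. The scaling, the filter and differences near the threshold of 1 were not covered by it.

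Named genes were the 12 risen and 12 fallen genes with the largest change among those whose stages did not overlap, the 6 with the largest gain and 6 with the largest loss of mean FPKM, a list of known regulators, up to 4 called members in each direction of each gene list, and the 6 largest in each direction of the interaction among genes called in controls. Of these, values are given for a selection made after they were seen. Some genes that the rule names are not reported here. Members and lists were chosen with earlier results of these data known. Alternatives were another pseudocount, other filters, FPKM as deposited, quantile normalization, the range of replicate numbers as a term, a fit on 15 libraries, no fold threshold, a replicate block, and leaving out each library. The 3 KD libraries of 2-cell embryos were left out because they belong to neither stage.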

Additional observations from a re-analysis of the deposited data

Results flagged for a closer look

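Within each stage, a library was set apart for a gene where its gap to the nearest other library, divided by the range of the 4, exceeded Dixon's critical value for 4 values, which chance alone gives in about 1 in 20 groups. This held in 33 of 368 groups of 4 values for the genes named above, and the figures in brackets are that ratio. Morula 1 lay above the other morulae for Dnmt3b (0.874), Dsg2 (0.894), Dusp6 (0.911), Gata6 (0.922), H2afy (0.888), Slc15a2 (0.895), Slc5a6 (0.925), Sox17 (1) and Tfap2c (0.952) and below them for Pramel7 (0.836). Morula 2 lay above the other morulae for Adh1 (1) and below them for Gapdh (0.998). Morula 7 lay above the other morulae for Il6 (0.841) and Spp1 (0.921). Morula 8 lay above the other morulae for Mir292b (1). Blastocyst 1 lay above the other blastocysts for Cfc1 (0.837), Fabp3 (0.86), Omt2b (0.891), Sat1 (0.859) and Slc15a2 (0.841) and below them for Cphx2 (0.905), Fbxl20 (0.863), Fgfr1 (0.836), Psat1 (0.833) and Serpine2 (0.865). Blastocyst 4 lay above the other blastocysts for Gata4 (0.971) and below them for Id1 (0.894). Blastocyst 5 lay above the other blastocysts for Itgb5 (0.938) and Nsdhl (0.837). Blastocyst 6 lay above the other blastocysts for Dag1 (0.924), Gata6 (0.923), Obox8 (1) and Socs3 (0.876).

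Gata6 was 27.8 FPKM in morula 1, where the nearest other morula had 10.3, and Tfap2c was 24.6 against 15.5. Itgb5 was 6.31 in blastocyst 5 against 0.800 in the nearest other, and Slc15a2 was 122 in blastocyst 1 against 49.4.

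For 80 of the named genes the stage change in H2A.Z KD embryos differed from that in control embryos by more than 1 on the log2(FPKM + 1) scale at an adjusted p under 0.05 in limma's interaction term. Of these, 2, Aqp8 and Gata2, were listed at 0 in all control morulae and get no figure; 43 of the remaining 78 had a lower and 35 a higher change in KD. Over all 11849 genes 962 (8.12%) were called so, but the named genes were taken largely for a large control change and some by this interaction itself, so a higher count among them is built in. Figures in brackets are the KD change minus the control change. Lower were Upp1 (-3.84), BC053393 (-3.65), Lgals1 (-3.33), Mir292b (-2.96), Slc44a1 (-2.95), Tmsb4x (-2.84), Tspan8 (-2.78), Spp1 (-2.77), Dppa1 (-2.66), Glrx (-2.35), Ooep (-2.28), Cfc1 (-2.26), S100a10 (-2.23), Adh1 (-2.23), Id2 (-2.21), Npc1 (-2.17), mt-Co1 (-2.13) and Sparc (-2.06). Lower by less were Gm29216 (-2.02), mt-Co3 (-1.95), Gm28437 (-1.95), Tpi1 (-1.82), Slc15a2 (-1.79), Mt1 (-1.70), Magea6 (-1.69), Gm28661 (-1.68), Dsg2 (-1.55), Apoe (-1.47), Gsta4 (-1.45), Mycn (-1.43), Cldn6 (-1.42), Slc38a4 (-1.38), Dusp6 (-1.37), Elf5 (-1.31), Rpl22l1 (-1.30), Mdh1 (-1.24), Fxyd6 (-1.18), Atp1b1 (-1.14), mt-Nd1 (-1.14), Scd1 (-1.12), Dsc2 (-1.10), Pgk1 (-1.06) and Dkk1 (-1.05). Higher were Gm25353 (3.21), Gm11546 (3.01), Cphx2 (2.87), Kdm2b (2.86), Nppb (2.84), Gm5890 (2.71), Obox6 (2.63), Trim43c (2.49), Nanog (2.49), Trim43b (2.45), Fbxl20 (2.33), Cthrc1 (2.32), Apobec3 (2.30), Dynap (2.11), Cphx1 (1.88), Tfrc (1.81), Sp110 (1.77) and Tdh (1.73). Higher by less were Larp4 (1.72), Farsa (1.62), Ccne1 (1.62), Slc5a6 (1.61), Gm5612 (1.47), Zfp143 (1.47), Gm11517 (1.45), Sox15 (1.44), Bex6 (1.41), Aqp3 (1.33), Slc2a8 (1.33), Psat1 (1.27), Ctsz (1.18), Cited1 (1.12), Tfap2c (1.10), Pramel4 (1.03) and Bok (1.01).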

How the results depend on the processing

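The counts of genes that rose (1583) and fell (1525) from control morulae to control blastocysts stayed within 1.5 times under every alternative except an adjusted p alone, which by dropping the fold threshold gave 3274 and 3413. They ran from 1474 to 1653 and from 1435 to 1587 when 1 library was left out, and 1294 of the risen (81.7%) and 1191 of the fallen genes (78.1%) were called in every such fit. Libraries numbered 4 and above alone, a comparison chosen after seeing the data, gave 1389 and 1105, with 1262 and 942 of the same genes. FPKM as deposited gave 1754 and 1362, and a pseudocount of 0.1 gave 2130 and 2072.

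In H2A.Z KD the 931 risen genes became 1614 with a pseudocount of 0.1 and the 706 fallen genes 463 with FPKM as deposited; the cause was not tested. Leaving out 1 library gave 870 to 1041 and 671 to 799. The 962 genes whose stage change differed became 595 with no filter, where 34210 genes were tested, and 743 to 1136 without 1 library. With the replicate block, which pairs control and KD libraries of the same number and stage, the count was 1071. No paired analysis was possible because control morulae and control blastocysts share replicate number 1 alone.

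Of 174 named genes tested, 156 had the same call and direction under every alternative that tested them and 163 when any 1 library was left out. Between libraries numbered 4 and above Nanog turned to -0.10, Cldn4 to 0.28 and Crxos to -0.29, and Crxos turned to -0.30 after quantile normalization; the cause was not tested. Without 1 library, Nanog ran from -0.043 to 0.44, Cldn4 from -0.45 to 0.27, Xist from -0.43 to 0.081 and Cdkn1a from -0.45 to 0.0071, and none of them was called. With no read counts, values near 0 FPKM carry no limit of detection.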

Other observations

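Some families were too small in these libraries for a count to say much. Of 11 aquaporins 3 were tested and 1 rose, of 23 claudins 5 were tested and 2 rose (in each family 1 of the risen was below 1 FPKM in every morula), of 50 keratins 3 were tested and 3 rose, and of 7 Obox genes 2 were tested and 2 fell. By gene type, 32 of 107 unprocessed pseudogenes fell and 9 rose, and of 297 long intergenic noncoding RNA genes 62 rose and 63 fell. Over all genes tested 13.4% rose and 12.9% fell, and the types were not tested against these shares.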
